A study of Saccharomyces cerevisiae with 2 samples.

Results

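Ribosome assembly factors of the nucleolus were compared between a mutant and a wild-type strain of the budding yeast Saccharomyces cerevisiae. They were taken as the genes whose symbol is UTP, NOP, RRP, NOC, ENP or DBP followed by a number alone, which gave 67 of the 5734 genes in the longer deposited table: 18 UTP, 17 NOP, 18 RRP, 9 DBP, 3 NOC and 2 ENP genes. The mutant is Y518, described in the series title as a high producer of glutathione, and the wild type is 2-10515. The labels give neither the mutation of Y518 nor its relation to 2-10515. Each strain was started from a single colony, pre-grown for 18 h at 30 °C and 180 rpm, and fermented under the same conditions for 24 h. mRNA from 1 culture of each strain was sequenced, so there is 1 library per strain, no difference below has a replicate check, and every comparison is between these libraries. In a bulk culture, a lower share of cells that express a gene and less RNA per cell cannot be told apart.

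Ribosomes are built in the nucleolus around the long precursor of ribosomal RNA. The U3 small nucleolar ribonucleoprotein and the UTP complexes bind its 5′ end as it is transcribed and form the small subunit processome. Guide RNA particles modify the bases, and DEAD-box helicases remodel the folding RNA. Some NOP, NOC and RRP proteins act on the small subunit, others carry the large subunit forward, and the exosome trims the spacers. In yeast the genes of this machinery are known to be switched together with growth and nutrient supply. The symbol rule reaches beyond the nucleolus in places: DBP5 acts in mRNA export at the nuclear pore, DBP1 is a cytoplasmic relative of the translation factor DED1, and the RRP exosome subunits also work outside the nucleolus. The comparison addresses how the transcript levels of this machinery differ between the high glutathione producer and the wild type after fermentation.

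The 67 genes were, on balance, somewhat higher in Y518, while the share past 2-fold was near that of all genes. They held 21633 of the 4.32 M uniquely mapped reads in the Y518 library (0.501%, exact binomial 95% interval 0.494 to 0.508) and 16152 of the 4.71 M in the 2-10515 library (0.343%, 0.338 to 0.348). The summed reads per library total were 1.46-fold higher in Y518 (95% counting interval 1.43 to 1.49). All intervals here cover counting error only. RPKM, the deposited read count scaled to coding length and library total, ran over these genes between 11.2 and 306 with a median of 34.1 in Y518, and between 6.03 and 155 with a median of 23.5 in 2-10515. All 67 passed the minimum used for all genes, a mean of 5 RPKM over both libraries. Over the 5415 genes that passed it, the median was 50.9 RPKM in Y518 and 42.8 RPKM in 2-10515, so assembly factors lay below the typical gene in both libraries.

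A gene is called here when (RPKM + 1) differs at least 2-fold between the libraries, the added 1 RPKM being a pseudocount that slightly shrinks the ratio of low genes. By this measure 17 assembly factors (25.4%) were higher in Y518 and 1 (1.49%) was lower, and 49 were within 2-fold. Among all genes tested 19.9% were higher and 8.88% were lower. The log2 ratio of Y518 over 2-10515 had a median of 0.47 over the members (quartiles 0.14 and 0.99) and of 0.27 over all genes (quartiles -0.29 and 0.84). It was above 0 for 55 members (82.1%) and for 63.0% of all genes. The members spanned -1.10 to 1.83, and all genes -12.88 to 7.29. The general offset of 0.27 in favour of Y518 depends on the scaling. After centring on it, 8 members (11.9%) were higher and 1 was lower, against 13.2% and 13.6% of all genes. The share of higher members is then slightly under that of all genes. Both scalings have the scarcity of lower members. The member median lies 0.20 above the all-gene median, and 43 members (64.2%) lie above that median. Centring shifts every gene equally, so these 2 values are the same in both scalings by construction.

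**Figure D1:**
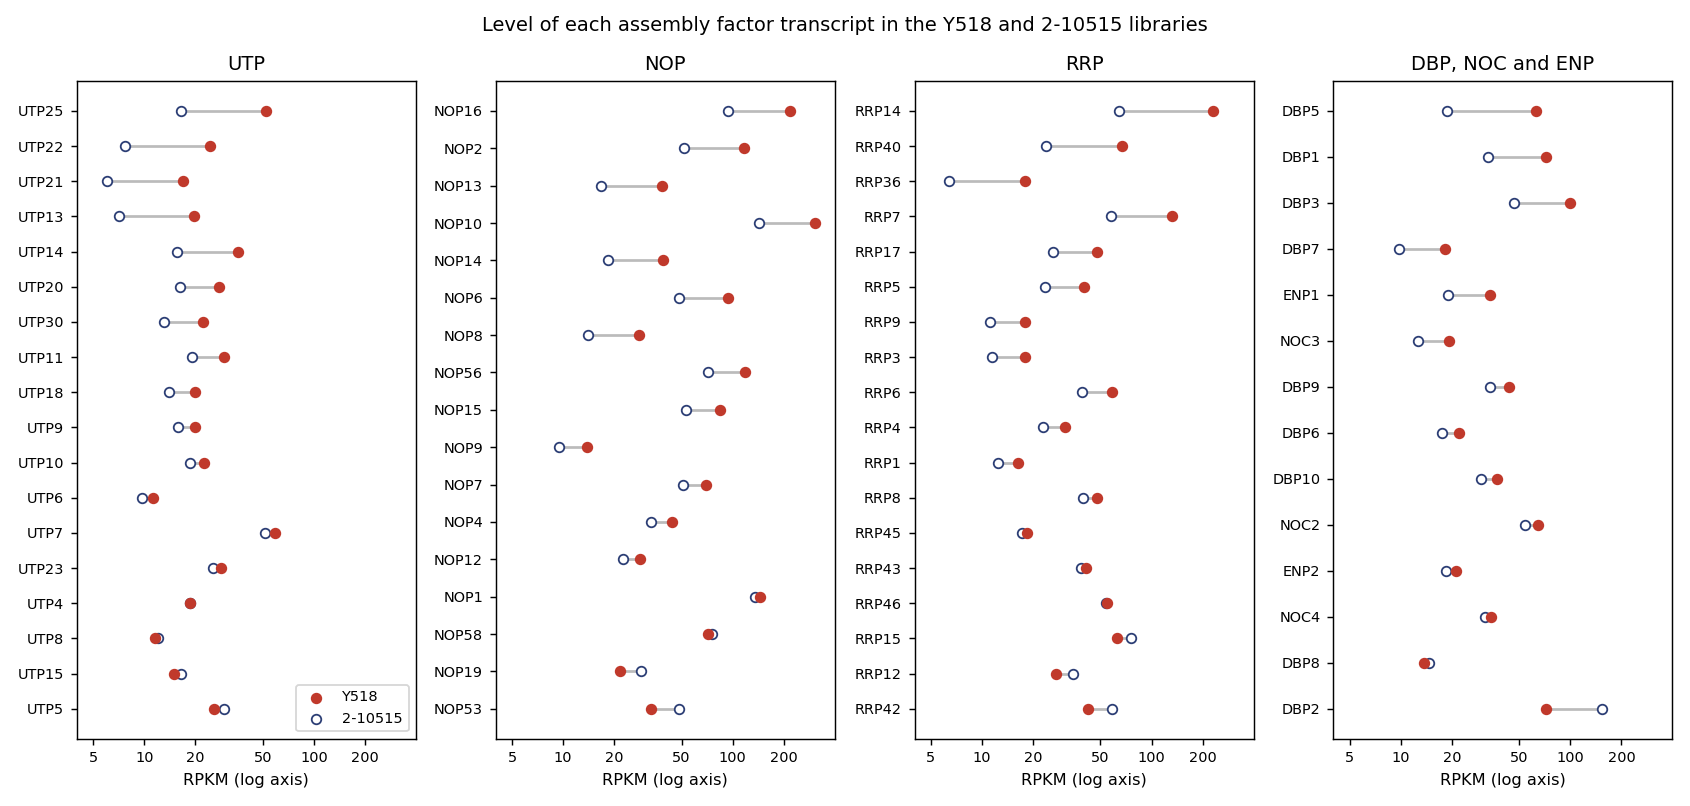
Level of each of the 67 assembly factor transcripts in the Y518 library (filled red) and the 2-10515 library (open blue), in RPKM on a log axis, in panels by symbol prefix and ordered by log2 ratio within each panel, with grey lines joining the libraries. Most filled points lie right of the open ones; DBP2 is the widest exception, with 71.6 RPKM in Y518 and 155 RPKM in 2-10515.

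Between prefixes the medians differed little. The median log2 ratio was 0.67 for NOP genes, 0.49 for ENP, 0.48 for RRP, 0.39 for UTP, 0.35 for DBP and 0.26 for NOC genes. The 2-fold rule called 5 UTP (27.8%), 5 NOP (29.4%), 4 RRP (22.2%) and 3 DBP (33.3%) genes higher in Y518, against 19.9% of all genes. It called 1 DBP gene lower (11.1%), against 8.88% of all genes, and neither an ENP nor a NOC gene in either direction. After centring, 4 UTP, 3 RRP and 1 DBP genes were higher and none of the NOP genes, against 13.2% of all genes. Levels separated the prefixes more than ratios did. Median RPKM was 69.8 in Y518 and 48.4 in 2-10515 for NOP genes, and 22.3 in Y518 and 16.01 in 2-10515 for UTP genes. Across members, log2 RPKM in the libraries had a Pearson correlation of 0.84, a description over 67 genes that share the same pair of libraries.

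Before the single genes, the stretches ahead of their start codons are shown, because yeast assembly factor genes are known for a pair of shared promoter elements, PAC and RRPE. PAC is bound by the repressors Dot6 and Tod6, and RRPE by the repressor Stb3. The 250 bases before each start codon were read from the RefSeq R64 assembly of the reference strain S288C, on the strand of the gene. All 67 members matched an R64 transcript record with its version and its coding length. The bases are those of the reference strain, not of Y518 or 2-10515, and part of the window can be transcribed leader. Searched on both strands, the PAC core GATGAG was in 55 of 67 member windows (82.1%) and in 17.0% of the windows of all 6020 coding genes. The longer form GCGATGAG, which contains the core, was in 29 (43.3%) and in 3.82% of all. For RRPE the palindrome AAAATTTT was in 41 (61.2%) and in 8.62% of all, and the form GAAAAATTT, which can overlap the palindrome, in 31 (46.3%) and in 5.88% of all. A match is a description of these letters, not evidence that a factor binds.

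Both longer forms together stood in 14 members, and in 1.30% of all windows. The windows below show how closely the elements can lie in members from both ends of the ratio range, with each match to a PAC or RRPE form on either strand in capitals. UTP21 and UTP25 were among the members highest in Y518, DBP2 was the lower member, and DBP7 and RRP8 have the elements side by side.
UTP21, 133 to 104 bases before the start: AAAATTTTgaGAAAAATTTcGCGATGAGat
UTP25, 134 to 105 bases before the start: atgatctGAAAAATTTTTCcttcgcaatac
UTP25, 102 to 73 bases before the start: ctataatttagCTCATCGCatattttgcaa
DBP3, 164 to 135 bases before the start: aaaagatGAAAAATTTTTCacCTCATCGCa
DBP7, 152 to 123 bases before the start: ttGAAAAATTTGCGATGAGcttaggaaaat
RRP8, 100 to 71 bases before the start: tGAAAAATTTTGCGATGAGctcaaaataag
DBP2, 166 to 137 bases before the start: ttacgccgatgCTCATCGCagAAAATTTTt
RRP14, the member with the largest ratio, holds cores but neither longer form, and a window with a PAC core is shown for contrast.
RRP14, 147 to 118 bases before the start: attctttttattCTCATCtccggtaaagaa

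Matches lay at similar distances: the median distance of the far end from the start codon was 127 bases for GCGATGAG (29 matches, quartiles 102 and 137) and 133 bases for GAAAAATTT (39 matches, quartiles 122 and 154). By prefix, the PAC core was in 14 of 18 UTP, 16 of 17 NOP, 13 of 18 RRP and 7 of 9 DBP genes and in all 3 NOC and both ENP genes. In 5 members none of the forms was found: UTP22, DBP1, RRP42, RRP45 and RRP46, the last 3 being exosome subunits. The median log2 ratio of members with an element was higher or lower than that of the others, depending on the element. Members with the PAC core had a median log2 ratio of 0.47 (13 of 55 higher), and the 12 without it 0.33 (4 higher). With GCGATGAG it was 0.40 (9 of 29 higher), against 0.54 in the 38 without it (8 higher). With AAAATTTT it was 0.35 (10 of 41 higher), against 0.55 in the 26 without it (7 higher), and with GAAAAATTT 0.60 (9 of 31 higher), against 0.38 in the 36 without it (8 higher). With both longer forms it was 0.93 (7 of 14 higher), against 0.40 (10 of 53 higher) in the other members. Of those 7, UTP21 and UTP25 were still past 2-fold after centring, and the 14 also hold DBP2 at -1.10 and RRP12 at -0.33. The 38 genes outside both assembly lists with both longer forms had a median of 0.36 (5 higher, 2 lower). Beside these counts, 19.9% of all genes were higher and 8.88% lower, and 25.4% of the 67 members were higher. No test was made on these splits.

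**Figure D2:**
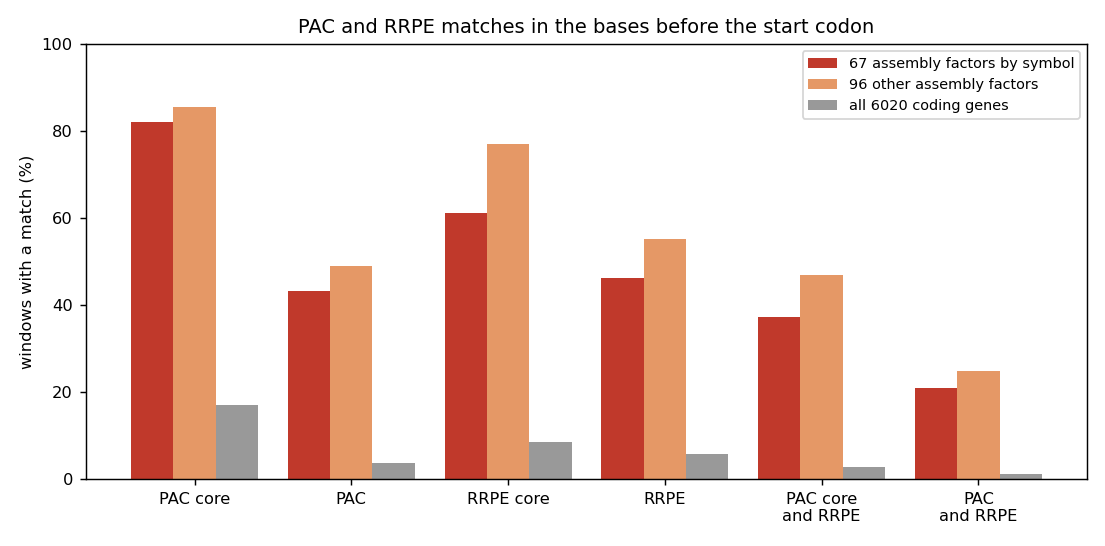
Percent of 250-base windows before the start codon with a match to PAC, RRPE or both, for the 67 assembly factors, 96 further assembly factors without these symbols, and all 6020 coding genes of the R64 annotation. The PAC core is in 82.1%, 85.4% and 17.0% of windows, and both longer forms together in 20.9%, 25% and 1.30%.

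Within the small subunit processome the subcomplexes differed in their values. UTP-A binds the growing precursor before the others and is also needed for its transcription. None of the 7 UTP-A genes was 2-fold higher or lower, against 19.9% and 8.88% of all genes. Their median log2 ratio was -0.06 (-0.33 after centring). UTP5 had 214 reads in Y518 and 270 in 2-10515, and UTP15 had 99 in Y518 and 120 in 2-10515. UTP8 had 107 reads in Y518 and 122 in 2-10515. UTP4, whose human counterpart is cirhin, had 18.6 RPKM in Y518 and 18.7 RPKM in 2-10515. In each of these 4 the counting interval includes 1 under the deposited scaling. After centring their log2 ratios were -0.48 for UTP5, -0.42 for UTP15, -0.33 for UTP8 and -0.28 for UTP4. UTP9 had 148 reads in Y518 and 128 in 2-10515, a ratio of 1.26 (0.989 to 1.61). UTP10, a very long repeat protein of 5310 coding bases, had 513 reads in Y518 and 466 in 2-10515 (1.20-fold, 1.06 to 1.36). Its log2 ratio was -0.02 after centring. The seventh subunit, NAN1, outside the symbol rule, had 375 reads in Y518 and 569 in 2-10515, 1.39-fold lower in Y518 (1.22 to 1.59).

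UTP-B, which joins UTP-A on the precursor and bridges it to U3, stood higher. UTP21 had 205 reads in Y518 and 80 in 2-10515 (2.79-fold, 2.15 to 3.67). UTP13 had 207 reads in Y518 and 82 in 2-10515 (2.75-fold, 2.12 to 3.60). Both are WD-repeat proteins, and both stayed above 2-fold after centring. Reads covered 86.4% of the coding length of UTP21 in Y518 and 63.05% in 2-10515, and 94.6% of UTP13 in Y518 and 71.5% in 2-10515. UTP18 had 153 reads in Y518 and 118 in 2-10515, a log2 ratio of 0.47. UTP6 had 64 reads in Y518 and 60 in 2-10515, with an interval of 0.805 to 1.68. The remaining subunits DIP2 and PWP2 had log2 ratios of 1.17 and 0.43, which makes 3 of 6 UTP-B genes at least 2-fold higher in Y518 and none lower, against 19.9% and 8.88% of all genes, with a median of 0.82. After centring 2 of 6 were higher, against 13.2% of all genes, and the median was 0.55.

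UTP-C joins UTP22 and RRP7 with casein kinase 2. UTP22, homologous to human nucleolar protein NOL6, had 24.3 RPKM in Y518 and 7.72 RPKM in 2-10515 (3.15-fold, 2.58 to 3.86). RRP7 had 133 RPKM in Y518 and 57.5 RPKM in 2-10515 (2.31-fold, 1.98 to 2.70). Both passed 2-fold as deposited. After centring UTP22 was still past it at a log2 ratio of 1.27, and RRP7 was short of it at 0.92. Of the kinase subunits, CKA1 was the third higher gene of the 6 in this list, at 1.20, and CKB1, CKB2 and CKA2 had 0.63, 0.17 and -0.08. That makes 3 of 6 higher and none lower, against 19.9% and 8.88% of all genes. After centring 1 of the 6 was higher and none lower, against 13.2% and 13.6% of all genes. UTP22 was covered over 90.7% of its coding length in Y518 and 77.4% in 2-10515.

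**Figure D3:**
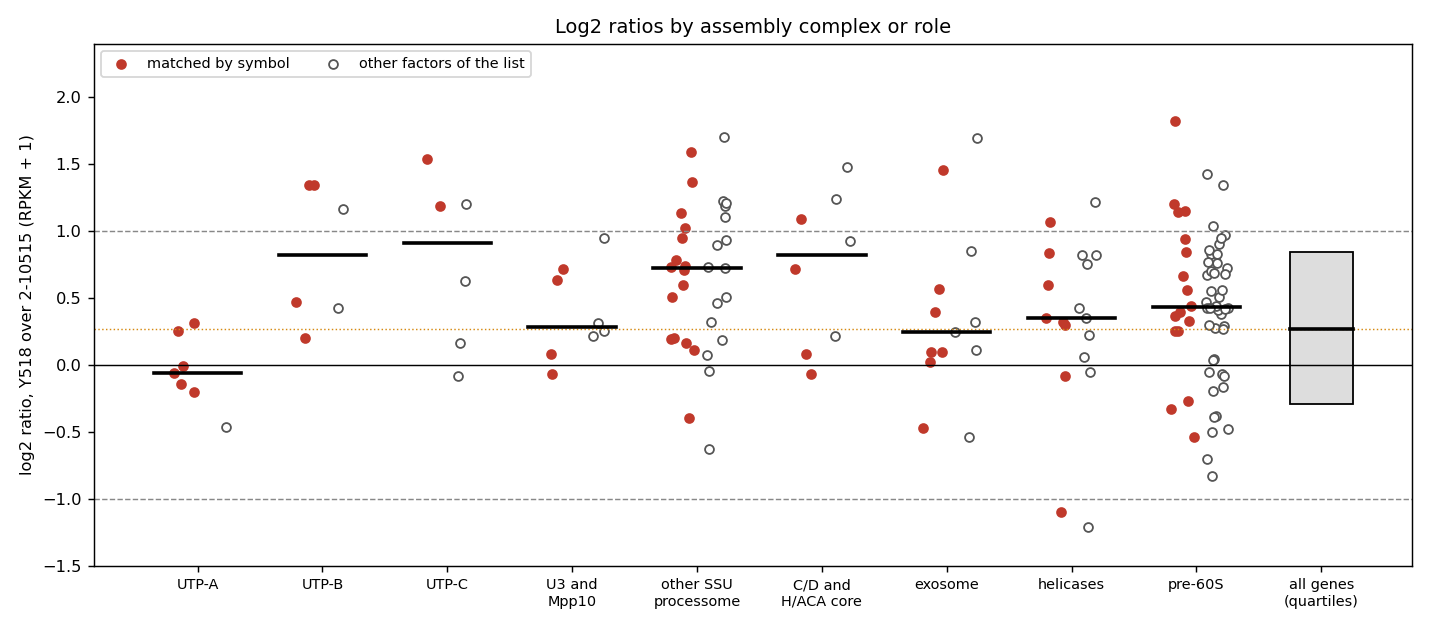
Log2 ratio of (RPKM + 1) in Y518 over 2-10515 by complex or role, with genes of the symbol rule in red, further genes of the same list as open circles and black bars at each list's median; the grey box gives the quartiles and median of all 5415 genes, the dotted line their median of 0.27 and the dashed lines the 2-fold limits. UTP-A lies around 0 with a median of -0.06, and UTP-B and UTP-C have medians of 0.82 and 0.91. Some genes, such as NOP1, NOP56 and NOP58, stand in more than 1 list.

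The box C/D core, which the U3 particle shares with the guide RNAs for 2′-O-methylation, had both abundant and evenly expressed members. NOP1, fibrillarin, the methyltransferase itself, had 144 RPKM in Y518 and 136 RPKM in 2-10515 (1.06-fold, 0.945 to 1.18). NOP58 had 71.8 RPKM in Y518 and 75.2 RPKM in 2-10515 (0.954-fold, 0.842 to 1.08). Its partner NOP56 had 117 RPKM in Y518 and 71.1 RPKM in 2-10515 (1.65-fold, 1.47 to 1.85). The interval of NOP56 thus lies wholly above that of NOP58, although both proteins sit in the same particle. RRP9, the U3-specific WD-repeat protein, had 134 reads in Y518 and 91 in 2-10515. NOP10, a tiny subunit of the H/ACA particles that make pseudouridine, had the highest RPKM of all members in Y518 and the next highest after DBP2 in 2-10515, with 306 RPKM in Y518 and 143 RPKM in 2-10515. It rests on 234 reads in Y518 and 119 in 2-10515 over 177 coding bases (2.14-fold, 1.71 to 2.70). The other H/ACA proteins, outside the symbol rule, were also above 0: the pseudouridine synthase CBF5 had a log2 ratio of 1.48, NHP2 of 1.24 and GAR1 of 0.93.

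Of the other processome factors of the symbol rule, 4 of 16 passed 2-fold upward in Y518 and none downward, against 19.9% and 8.88% of all genes, with a median log2 ratio of 0.72. UTP25, a relative of DEAD-box proteins that lacks their catalytic residues, had 485 reads in Y518 and 169 in 2-10515 (3.13-fold, 2.62 to 3.75). RRP36 had only 70 reads in Y518 and 27 in 2-10515, and its interval of 1.79 to 4.59 is the widest among the called members. It was covered over 96.5% of its coding length in Y518 and 73.3% in 2-10515. UTP14, which switches on the helicase Dhr1 that removes U3, had 415 reads in Y518 and 199 in 2-10515 (2.27-fold, 1.92 to 2.71). NOP14 had 405 reads in Y518 and 211 in 2-10515 (2.09-fold, 1.77 to 2.48). NOC4, with which NOP14 works as a pair, was even, at 244 reads in Y518 and 246 in 2-10515 (1.08-fold, 0.902 to 1.30). Of the called factors UTP25 and RRP36 stayed above 2-fold after centring, and NOP14 and UTP14 were at 0.75 and 0.86.

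The remaining processome factors were within 2-fold. ENP1, which stays on the particle into the cytoplasm, had 210 reads in Y518 and 130 in 2-10515 (1.76-fold, 1.41 to 2.21). ENP2, a WD-repeat protein, had 195 reads in Y518 and 184 in 2-10515 (1.16-fold, 0.940 to 1.42). The long scaffolds gave narrow intervals. UTP20, the longest member at 7482 coding bases, had 895 reads in Y518 and 574 in 2-10515 (1.70-fold, 1.53 to 1.89). RRP5, which is needed for both subunits, had 892 reads in Y518 and 574 in 2-10515 (1.69-fold, 1.52 to 1.89). NOP6, a non-essential RNA-binding protein, came close to the threshold with a log2 ratio of 0.95 (276 reads in Y518, 154 in 2-10515). UTP30 and UTP11 had log2 ratios of 0.71 and 0.60, and NOP9, a pumilio-like protein, had 0.51 on 120 reads in Y518 and 89 in 2-10515. UTP7 and UTP23 were near even, at 0.19 and 0.17. NOP19 was the exception in direction, with 55 reads in Y518 and 80 in 2-10515, and its interval of 0.522 to 1.07 includes 1.

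The DBP helicases spanned the widest range of the 6 prefixes, from -1.10 to 1.68 in log2 ratio, and held the only lower call among the members. DBP2, which works on both messenger and ribosomal RNA and is the only member with an intron in its coding region, had 71.6 RPKM in Y518 and 155 RPKM in 2-10515. That is 507 reads in Y518 against 1195 in 2-10515, 2.16-fold lower in Y518 (1.95 to 2.402), and it was the member with the highest RPKM in the wild type. Its log2 ratio was -1.10 as deposited and -1.37 after centring. DBP5, the export factor, lay at the other end with 390 reads in Y518 and 128 in 2-10515 (3.32-fold, 2.71 to 4.09), and stayed above 2-fold after centring. DBP1 had 574 reads in Y518 and 286 in 2-10515 (2.19-fold, 1.90 to 2.53). Both are helicases known to act outside the nucleolus.

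Of the other helicases, which act on pre-ribosomes, DBP3 was the one past 2-fold. It had 99.0 RPKM in Y518 and 46.7 RPKM in 2-10515 (2.12-fold, 1.86 to 2.42), and after centring its log2 ratio was 0.79. DBP6, DBP7 and DBP9 act at the earliest steps of the large subunit. DBP7 had 175 reads in Y518 and 102 in 2-10515, a log2 ratio of 0.84. DBP9 and DBP6 had log2 ratios of 0.35 and 0.32, and DBP10, a further pre-60S helicase, of 0.30. Of the helicases of the small subunit, RRP3 had 116 reads in Y518 and 81 in 2-10515 with 97.5% of its coding length covered in Y518 and 76.1% in 2-10515. DBP8 had 77 reads in Y518 and 89 in 2-10515. The interval of RRP3 (1.17 to 2.10) lies above 1 under the deposited scaling, whereas that of DBP8 (0.686 to 1.29) includes 1.

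**Figure D4:**
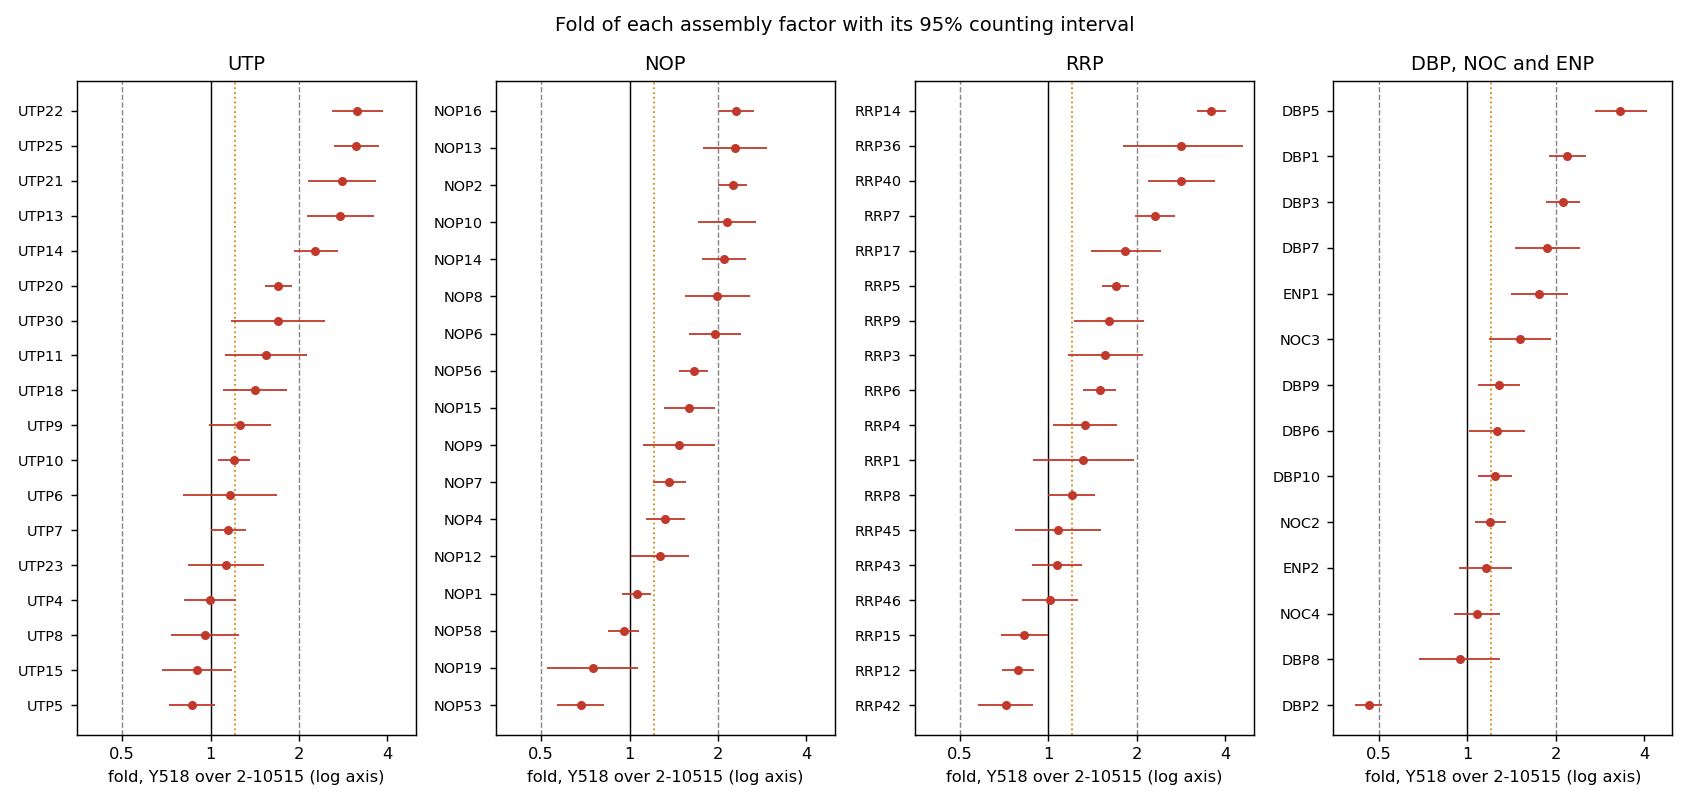
Fold of reads per library total in Y518 over 2-10515 for each of the 67 genes, on a log axis without pseudocount, with the exact conditional binomial 95% counting interval as a bar; the solid line marks equality, the dashed lines 2-fold and the dotted line the median log2 ratio of all genes, 0.27. The interval lies above 1 for 43 genes, below 1 for 5 and includes 1 for 19, and it lies wholly above 2 for 9. The same counts were not made over all genes, of which 63.0% had a log2 ratio above 0.

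For the large subunit, 4 of 17 members passed 2-fold upward in Y518, a share near the 19.9% of all genes, and none downward (8.88% of all genes), with a median log2 ratio of 0.44. RRP14, the yeast relative of human surfeit locus protein 6, had the largest ratio of all 67 genes. It had 232 RPKM in Y518 and 64.6 RPKM in 2-10515, on 1305 reads in Y518 and 397 in 2-10515, 3.59-fold higher in Y518 (3.20 to 4.02), and its interval overlaps those of DBP5, UTP22, UTP25, RRP36, RRP40, UTP13 and UTP21. NOP16 had 217 RPKM in Y518 and 94.0 RPKM in 2-10515 (2.31-fold, 2.02 to 2.66). NOP2, a methyltransferase that makes 5-methylcytosine in the large ribosomal RNA, had 116 RPKM in Y518 and 51.8 RPKM in 2-10515 (2.25-fold, 2.01 to 2.52). The RNA-binding protein NOP13 had 201 reads in Y518 and 96 in 2-10515 (2.28-fold, 1.78 to 2.94). After centring only RRP14 of these 4 was still above 2-fold, at 1.55.

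Further large subunit factors were higher by less. NOP8, with 175 reads in Y518 and 96 in 2-10515, lay just under 2-fold at a log2 ratio of 0.94, while NOP14 lay just past it at 1.03. RRP17, an exonuclease that trims the 5′ ends of pre-60S RNA, had 146 reads in Y518 and 87 in 2-10515, a log2 ratio of 0.85. NOP15, an RNA-binding protein of the second internal spacer, had a log2 ratio of 0.67, and NOP7, the yeast pescadillo, of 0.44. NOP4, NOP12 and RRP1 had 0.40, 0.33 and 0.37, and RRP8, which methylates an adenine of the large ribosomal RNA, had 0.26. NOC2 and NOC3 travel with pre-60S particles, NOC2 exchanging its partner MAK21 for NOC3. NOC3 had 165 reads in Y518 and 119 in 2-10515 (1.51-fold, 1.19 to 1.93). NOC2 had 594 reads in Y518 and 540 in 2-10515 (1.20-fold, 1.07 to 1.35). MAK21 went the other way, with 575 reads in Y518 and 1124 in 2-10515 and a log2 ratio of -0.83.

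Besides DBP2, the intervals of 4 members lay below 1. NOP53, which brings the exosome helicase Mtr4 to the spacer of pre-60S particles, had 33.0 RPKM in Y518 and 48.4 RPKM in 2-10515, 1.47-fold lower in Y518 (1.22 to 1.76). RRP12, a repeat protein needed for export of both subunits, had 434 reads in Y518 and 599 in 2-10515 (1.27-fold lower in Y518, 1.12 to 1.44). RRP15, a pre-60S factor, had 203 reads in Y518 and 267 in 2-10515 (1.21-fold lower in Y518, 1.001 to 1.45). The exosome subunit RRP42 was the remaining one. None of these 4 reached 2-fold, either as deposited or after centring.

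The exosome, a ring of subunits capped by RNA-binding proteins that degrades RNA from the 3′ end, had 1 of 7 members past 2-fold upward in Y518 and none downward, against 19.9% and 8.88% of all genes, and the counting intervals of 4 members leave out 1. In the ring, RRP42 had 145 reads in Y518 and 221 in 2-10515 (1.40-fold lower in Y518, 1.13 to 1.74), and RRP43 had 210 in Y518 and 214 in 2-10515. RRP46 had 158 reads in Y518 and 170 in 2-10515. RRP45 had 73 reads in Y518 and 74 in 2-10515. The intervals of RRP43, RRP45 and RRP46 all include 1. In the cap, RRP40 stood apart with 67.3 RPKM in Y518 and 23.8 RPKM in 2-10515 (2.83-fold, 2.18 to 3.70), and stayed above 2-fold after centring. RRP4, the neighbouring cap subunit, had 30.7 RPKM in Y518 and 23.0 RPKM in 2-10515 (1.33-fold, 1.04 to 1.72). The interval of RRP40 lies wholly above that of RRP4. The nuclear exonuclease RRP6 had 557 reads in Y518 and 406 in 2-10515, a log2 ratio of 0.57. Of the 6 exosome genes outside the symbol rule, MPP6, a nuclear cofactor, had a log2 ratio of 1.70 on 151 reads in Y518 and 49 in 2-10515, and the others ran between -0.54 for the cap subunit CSL4 and 0.85 for LRP1, the partner of RRP6.

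Coverage bears on how far single values can be read. The reads covered less than 90% of the coding length for 8 members (11.9%) in Y518 and 21 (31.3%) in 2-10515, against 17.9% of all genes that passed the minimum in Y518 and 22.6% in 2-10515. Coverage was higher in Y518 for 48 members and higher in 2-10515 for 18. The least covered member in Y518 was UTP6 at 83.1%, and in 2-10515 it was UTP21 at 63.05%. Of the 17 higher calls, 6 were on genes covered below 90% in 2-10515: UTP13, UTP21, UTP22, RRP36, NOP13 and DBP5. The part of coverage in these calls was not tested. Depth is the other limit, since 10 members had fewer than 100 reads in Y518 and 18 in 2-10515, where the lowest count was 27.

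**Figure D5:**
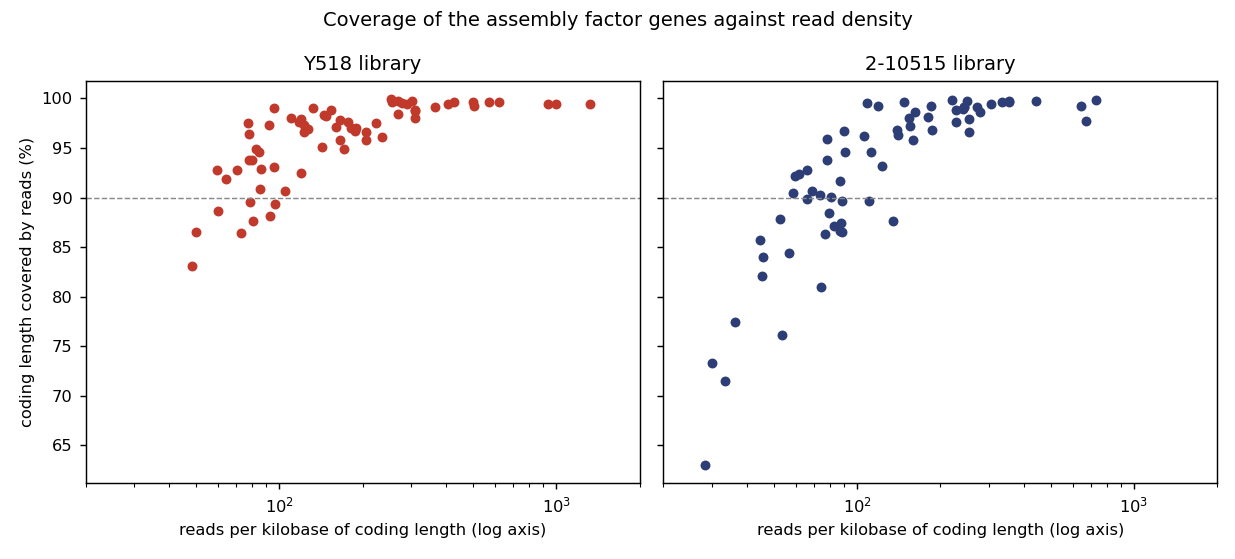
Percent of coding length covered by reads against reads per kilobase (log axis) for the 67 genes in the Y518 library (left) and the 2-10515 library (right), with a dashed line at 90%. The least covered genes are among those with few reads per kilobase; 8 genes lie below the line in Y518 and 21 in 2-10515, down to 63.05% for UTP21.

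Apart from the promoter letters the members share little in position. They lie on 14 chromosomes in the R64 annotation, with 12 on chromosome IV and 9 on chromosome XV. A single pair of members are next neighbours, RRP15 and NOC4, which are transcribed toward each other and had log2 ratios of -0.27 and 0.11. A further 5 lie next to another assembly factor. RRP3 and SSF1 are divergent over 297 bases, with log2 ratios of 0.60 and 0.43. UTP13 and RSA3, on the same strand, had 1.34 and 0.77, and DBP8 and NMD3, on the same strand too, -0.08 and -0.17. None of the 67 overlaps another annotated gene or has a near-identical copy, so reads shared between copies do not enter their counts. Their median coding length was 1542 bases, against 1230 for all genes that passed the minimum, and their median GC content 38.4% against 39.8%.

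The rest of the assembly pathway gave values close to those of the members. Of 96 assembly factors with other symbols, 17 (17.7%) passed 2-fold upward in Y518 and 1 (1.04%) downward, against 19.9% and 8.88% of all genes, with a median log2 ratio of 0.47. After centring 6 were higher and 2 lower, against 13.2% and 13.6% of all genes. The PAC core was in the windows of 82 of them. The highest of the 96 were FCF1, the nuclease of the processome, at 1.70, MPP6 at 1.70 and RIO2, a kinase of late 40S particles, at 1.67. The lowest of the 96, which do not include the kinase HRR25 of the late 40S list (-0.92), were the helicase DHR2 at -1.21, which was the lower call (49 reads in Y518, 137 in 2-10515), MAK21 at -0.83 and the ATPase AFG2 at -0.70. RNA polymerase I makes the ribosomal RNA precursor, and its list includes initiation factors. Of 15 listed genes, 14 passed the RPKM minimum, with a median of 0.48. Of these, 2 were higher (14.3%) and 1, the initiation factor RRN6, was lower (7.14%), against 19.9% and 8.88% of all genes. RPA14, RPA43 and RPA190 had log2 ratios of 1.63, 1.30 and 0.95, and the initiation factors RRN6, RRN7 and RRN5 had -1.07, -0.58 and -0.23.

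Cytosolic ribosomal protein genes, the clients of this machinery, had larger differences than the assembly factors, with a median log2 ratio of 1.53 against 0.47. The 138 listed were taken by symbol and include RPP1, a subunit of RNase P and not a ribosomal protein. Of the 138, 118 passed 2-fold upward and none downward, against 19.9% and 8.88% of all genes. After centring 99 passed upward and none downward, against 13.2% and 13.6%. The 138 took 3.72% of the uniquely mapped reads in Y518 and 1.39% in 2-10515. Their median coverage was 98.5% in Y518 and 97.5% in 2-10515. Some were covered only in part, such as RPL1A at 23.7% in Y518 and 9.33% in 2-10515. Whether reads shared between gene copies are missing from these counts and shares was not tested. Of 10 regulators known to act on these gene sets, the kinase SCH9 had 124 RPKM in Y518 and 49.9 RPKM in 2-10515 (2.48-fold, 2.25 to 2.74). CRF1, a corepressor of ribosomal protein genes, had 63.7 RPKM in Y518 and 28.9 RPKM in 2-10515 (2.20-fold, 1.85 to 2.64), and HMO1 had a log2 ratio of 0.64. The PAC-binding repressor DOT6 had 529.9 RPKM in Y518 and 919 RPKM in 2-10515, 1.73-fold lower in Y518 (1.67 to 1.80). Its relative TOD6 had 54.6 RPKM in Y518 and 38.4 RPKM in 2-10515 (1.42-fold, 1.22 to 1.67). The RRPE-binding STB3 and the activator SFP1 were near even, with log2 ratios of 0.01 and -0.07, and RAP1 had -0.64. Whether these levels bear on the assembly factors was not tested.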

How the data were processed

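One mRNA library per strain, made from a single culture each of Y518 and 2-10515, was sequenced on an Illumina instrument, per the labels' protocols. Per the file headers, the deposited tables give for each gene the number of uniquely mapped reads (raw counts), the percent of the coding length covered by reads (Coverage) and RPKM. The authors' RPKM equals their read count scaled to the listed length and the library total for every gene (relative tolerance 1e-06). Every listed length is a multiple of 3, a coding length. Aligner, genome build and use of strand: not given in the sources used here. The totals were 4.32 M reads in Y518 and 4.71 M in 2-10515, and a count of 0 would allow up to 0.695 CPM in Y518 and 0.637 CPM in 2-10515 (3 reads).

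The members and the gene lists were chosen with earlier results of these data known. With 1 library per strain no test across genes is possible. Differences are log2 of (RPKM + 1) in Y518 over 2-10515, over genes averaging 5 RPKM or more, called at 2-fold. Folds without the pseudocount have exact conditional binomial (Clopper-Pearson) 95% intervals, which cover counting error only. Fuller values were given by rule to the 6 highest, the 6 lowest and the 6 most abundant members, to those past 2-fold or under 90% coverage, and to the NOC and ENP genes. The calculation was checked on simulated data. Python 3.11.15, pandas 2.3.3, scipy 1.17.1, matplotlib 3.10.9, BLAST+ 2.17.0 (near-identical copies, at least 95% identity over 100 bases) and edgeR 4.0.16 in R 4.3.3 (TMM factors only) were used. Genes were matched to RefSeq R64 by versioned accession (67 of 67 members and 5685 of 5734 listed genes), for names, neighbours and windows. No coordinates are printed, because the build of the files is not named. Alternatives were centring, TMM, totals without the 10 most abundant genes, another pseudocount and minimum, a coverage minimum, and leaving out DBP1 and DBP5.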

Additional observations from a re-analysis of the deposited data

How the results depend on the processing

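The 17 members at least 2-fold higher in Y518 became 8 after subtracting the all-gene median (centring), which shifts every log2 ratio by 0.27, and 8 with TMM factors, which shift it by 0.26. Those 8 were DBP5, RRP14, RRP36, RRP40, UTP13, UTP21, UTP22 and UTP25. Of these, DBP5, RRP36, UTP13, UTP21 and UTP22 were covered under 90% in 2-10515, and RRP14, RRP40 and UTP25 were covered above it in both libraries. Without members covered under 90% in either library, 11 of 46 were higher, a count that was not made over all genes. The median log2 ratio of the members, 0.47, was 0.20 after centring, 0.22 with TMM, 0.42 with totals that leave out the 10 most abundant genes of each library, 0.51 over the 46 members with at least 20 RPKM and 0.40 over the well covered members. Members above 0 numbered 55 as deposited and 43 after centring and with TMM. Under the other alternatives the count of higher members was between 13 and 17, and DBP2 was the lower member under each. The scaling shifts of 0.27 and 0.26 were too small to reverse the direction of any call.

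No paired analysis was possible because each strain has 1 library, and no replicate was there to leave out. Strain, culture and library cannot be told apart. The counting intervals leave out variation between cultures. Small counts limit short or weakly expressed members most, such as RRP36, with 70 reads in Y518 and 27 in 2-10515.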

Other observations

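Late 40S factors, which take the small subunit through export and its last cleavage, had 4 of 11 genes at least 2-fold higher in Y518 and none lower, against 19.9% and 8.88% of all genes, with a median log2 ratio of 0.77. After centring and with TMM, 1 was higher and 1, HRR25, was lower, against 13.2% and 13.6% of all genes after centring. The 4 were RIO2 at 1.67, TSR2 at 1.20, RIO1 at 1.07 and TSR1 at 1.03. The casein kinase HRR25 was the lowest of the list at -0.92, and NOB1, the nuclease of the last cleavage, had 0.23. None of these genes carries a symbol of the rule that chose the members. Among assembly helicases with other symbols, SPB4, which acts on the large subunit, had a log2 ratio of 1.22 and HAS1, which acts on both subunits, had 0.23.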
